A study of Mus musculus with 2 samples.

Results

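The collagen chain family was described in palate of mouse fetuses at E18.5 (embryonic day), across 2 arrays of the BALB/c background. The array called wild type below held palate RNA of unmodified BALB/c fetuses. The other held palate RNA of BALB/c fetuses labelled as null for Myf5 and Myod (gene symbol Myod1), the basic helix-loop-helix factors that commit cells to skeletal muscle, and is called the array labelled double null. The labels do not say which part of each gene was removed or whether an array held 1 fetus or a pool. Members were all probe sets annotated to a single gene whose symbol is Col, a number, a, and a number. This gave 82 probe sets of 42 chains, out of 18193 genes with a single-gene probe set.

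Collagens are trimeric matrix proteins whose chains wind into a triple helix of Gly-X-Y repeats. Fibrillar collagens form the cables of bone, tendon, skin and cartilage, and fibril-associated collagens decorate them. Type IV forms the sheet of basement membranes under epithelia and around vessels, nerves and muscle fibres, while types VI and VIII build microfibrils and hexagonal nets. Transmembrane collagens sit in the surface of epithelial, muscle and nerve cells. The palate near birth holds membrane bone, oral mucosa, muscle, vessels and nerves, with nasal cartilage above it, so most of these tissues can supply chains to a palate sample.

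There was 1 array per genotype, so the genotypes could not be tested against each other and no value has a replicate error. Each value is a linear MAS5 signal, scaled as described under the processing. A ratio is always the array labelled double null over wild type, on the log2 scale, and the brightest probe set (by mean log2 signal) stands for its gene. A gene is called measured if the higher of its signals was 658 or more, and "2-fold" means a log2 ratio of 1 or more in size. As a yardstick within these arrays, probe sets of the same gene differed in log2 ratio with a pooled SD of 0.51 over 4030 genes, and of 0.42 over 17 collagen chains. That SD covers probe and isoform effects, not differences between animals. The choice of scaling also bears on every sign. Scaling on the median signal of 12 reference genes shifts each log2 ratio by 0.32, and the same with Eef2 left out (an alternative chosen after seeing the data) shifts it by -0.47, because the reference gene Eef2 itself had 60886 and 21162, a log2 ratio of -1.52. Most ratios and list medians between -0.32 and 0.47 therefore change sign under one or other of these scalings, and their sign below is that of the reported scaling. In such bulk samples fewer cells of a type and less RNA per cell cannot be told apart.

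The targeted genes had similar signals on both arrays: Myod1 had 1938 in wild type against 1663, and Myf5, below the measured level, had 517 and 531. The sources used here do not say where these probe sets lie in relation to the deletions, so the values do not check the label. Skeletal muscle markers were below 0 in 11 of 11 genes with a median log2 ratio of -1.07. Of these 6 were at least 2-fold lower (Tnnc2, Des, Tnni1, Ckm, Tnnt3 and Myh8), with Tnnc2 at -1.69 and Des at -1.53. Des (1255 and 434) counted as measured only through the wild-type array. Oral suprabasal epithelium markers were below 0 in 4 of 4 with a median of -1.72 and summed signals of 33198 and 8597; Krt4, Lor and Krt13 had -2.25, -1.83 and -1.60. Neuron markers were above 0 in 6 of 6 with a median of 1.45. Markers of muscle, epithelium and bone were present on both arrays. Skeletal muscle markers had summed signals of 182443 and 95345, so muscle marker RNA remained on the array labelled double null. That label names both factors that commit cells to skeletal muscle, so it does not by itself imply such signals. What this muscle signal comes from was not tested. The arrays thus differed in markers of several cell types, and the part of these cells in the collagen values was not tested.

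Of the 42 chains 33 were measured, and 32 of those lay within 2-fold. Their log2 ratios ran from -1.37 to 0.88 with a median of -0.01, beside a median of 0.07 over the 11238 measured genes. A single chain, Col11a2, was at least 2-fold lower, or 3.03% of the chains, where 4.22% of all measured genes were. No chain was at least 2-fold higher, where 3.51% of all measured genes were, so that 7.72% of genes lay past 2-fold either way. Both counts are near the background and are no result about the family. Within 1.5-fold lay 25 chains, or 75.8%, against 75% of all measured genes. The median absolute log2 ratio was 0.29 for the chains and 0.32 for all measured genes. Beyond the probe set SD of 0.51 lay 5 chains on the lower side and 4 on the higher side, together 27.3% of the chains against 29.6% of all measured genes. With 1 array per genotype these counts describe the arrays only.

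**Figure D1:**
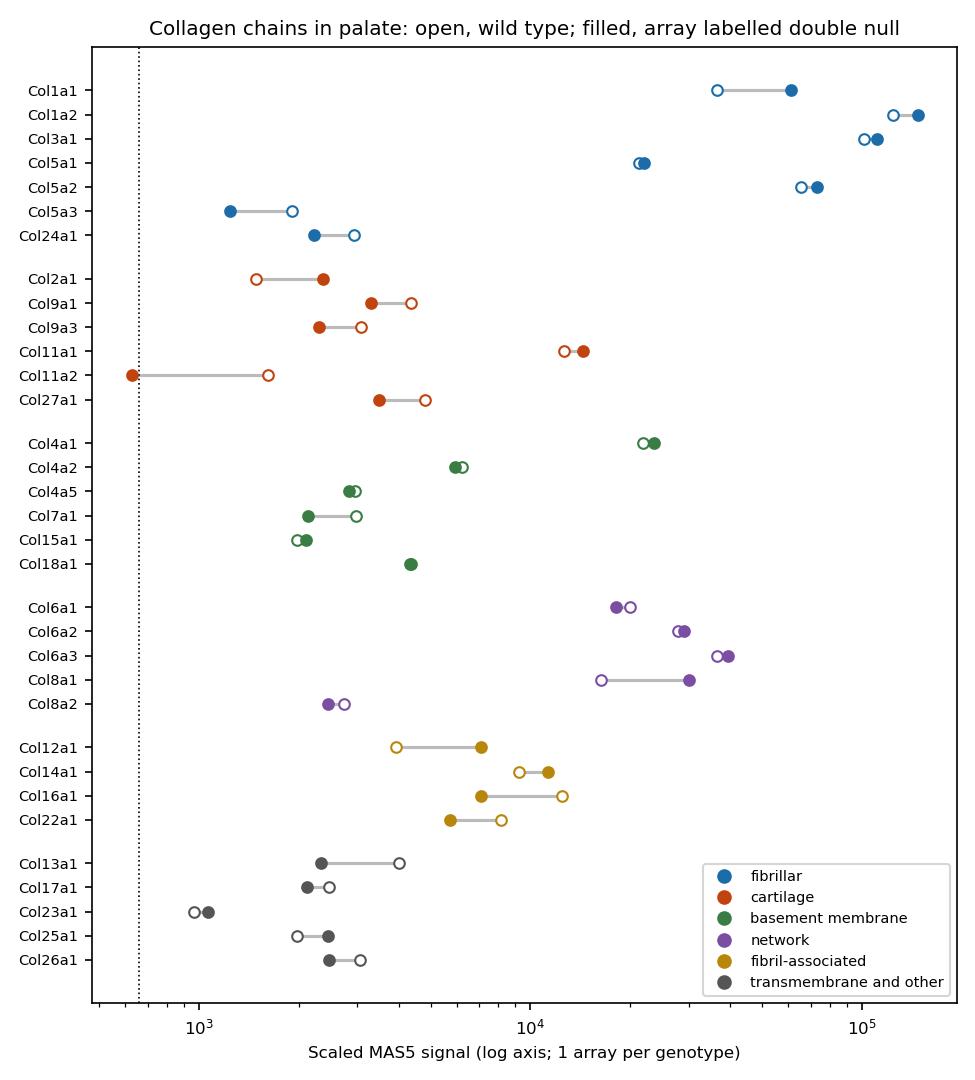
Scaled MAS5 signal (log axis) of each of the 33 measured collagen chains on the wild-type array (open circles) and the array labelled double null (filled circles), coloured by type, with the measured level of 658 as a dotted line. The longest line is that of Col11a2, from 1619 to 626, and most other pairs lie close together.

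All 7 fibrillar chains outside cartilage were measured and lay within 2-fold. Their median log2 ratio was 0.13 (-0.10 with quantile normalization and -0.34 when scaled to reference genes without Eef2), with 5 above 0 and 2 below. Col1a1, the major chain of type I collagen in bone, skin and tendon, had a wild-type signal of 36646 against 61076 on the other array, for a log2 ratio of 0.74. Its second probe set went from 16706 to 38315, a log2 ratio of 1.20 that lies past 2-fold. Col1a1 was thus higher by both probe sets, beyond the SD of 0.51 with the reported scaling. Its leading ratio ran from 0.27 to 1.05 over the alternatives, and was 0.27, within the SD, when scaled to reference genes without Eef2. Col1a2, the partner chain of type I, had 123685 and 147333, a log2 ratio of 0.25, next to 0.19 and 0.12 in the other probe sets. All 3 lay within the SD.

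Col3a1, the type III chain of loose connective tissue and vessel walls, had 101424 and 110738, a log2 ratio of 0.13 (0.07 in the second probe set). The type V chains start fibrils and set their diameter. Col5a1 had 21314 and 22080, a log2 ratio of 0.05, with -0.10 and -0.68 in the other probe sets. Col5a2 had 65466 and 73455, a log2 ratio of 0.17, with 0.42 in the other. Col5a3, the minor type V chain, went the other way, with 1907 and 1239 and a log2 ratio of -0.62. Col24a1, a fibrillar chain of developing bone, had 2940 and 2229, a log2 ratio of -0.40. Col1a1, Col1a2, Col3a1, Col5a1 and Col5a2 were therefore above 0 and Col5a3 and Col24a1 below. For Col1a2, Col3a1, Col5a1 and Col5a2 the sign turned when scaled to reference genes without Eef2, and for the last 3 with other scalings too: Col3a1 was below 0 with quantile normalization and with scaling on the median ratio of reference genes, Col5a1 with both of those and with the deposited scaling, and Col5a2 with quantile normalization.

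Markers of the cells that make these chains were given beside them. Of 7 measured fibroblast markers 4 were above 0 and 3 below, with a median of 0.02 (-0.14 with quantile normalization) and summed signals of 111583 and 98131. Dpt, dermatopontin, was the 1 fibroblast marker past 2-fold (3973 and 970, 4.10-fold lower), followed by Postn at -0.27. Of 6 measured osteoblast and osteocyte markers 4 were below 0 and 2 above, with a median of -0.37 and summed signals of 123272 and 112614. The osteocyte matrix genes were the lowest, Mepe by at least 5.63-fold and Dmp1 by 2.01-fold, while Ibsp, bone sialoprotein, had 86107 and 89889. Their part in the Col1a1 ratio was not tested. Of 4 measured tenocyte markers 2 were below 0, with a median of -0.22 (0.10 when scaled to the median signal of reference genes) and summed signals of 14423 and 13713. Tnmd had -0.59 and Mkx -0.46.

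**Figure D2:**
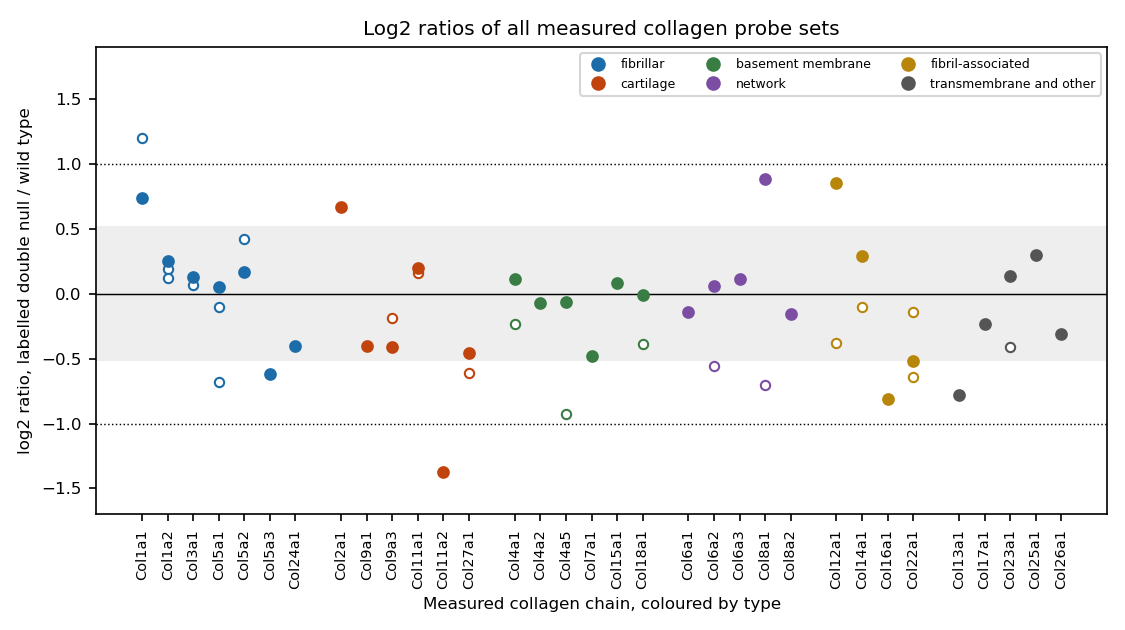
Log2 ratio (labelled double null over wild type) of each measured probe set of the 33 collagen chains, grouped by type; filled circles are the brightest probe set of a chain, open circles the others, the grey band is the SD of 0.51 between probe sets of a gene and dotted lines mark 2-fold. Only Col11a2 has its filled circle past 2-fold, and an open circle of Col1a1 stands at 1.20.

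Cartilage chains went both ways. Of the 8 chains 6 were measured, with a median log2 ratio of -0.41, and 4 were below 0. Col11a2, a chain of type XI collagen in the core of cartilage fibrils, went from 1619 to 626 and was 2.59-fold lower, a log2 ratio of -1.37 from its 1 probe set. Its lower value lies under the measured level of 658 but above the floor of 287, and it was the 1 chain of the 33 that counted as measured through a single array. Col11a1, its partner chain, had 12607 and 14438, a log2 ratio of 0.20, with 0.16 in the second probe set. Col2a1, the main cartilage collagen, had 1486 and 2367, a log2 ratio of 0.67 from its 1 probe set. With the reported scaling Col2a1 was therefore higher and Col11a2 lower by more than the SD, though cartilage fibrils carry both. Col2a1 was at 0.20, within the SD, when scaled to reference genes without Eef2.

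The type IX chains coat type II fibrils. Col9a1 had 4349 and 3302, a log2 ratio of -0.40. Col9a3 had 3074 and 2306, a log2 ratio of -0.41, with -0.19 in its second measured probe set. Col9a2 was not measured, with 394 and 154. Col27a1, a fibrillar chain of growing cartilage, had 4824 and 3501, a log2 ratio of -0.46, with -0.61 in the second probe set. The measured type IX chains and Col27a1 were thus lower to a like degree, each by less than the SD in its leading probe set. Col10a1, the marker of hypertrophic cartilage, was not measured, with 16.1 and 32.8.

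Of 13 chondrocyte markers other than collagens 7 were measured, 5 below 0 and 2 above, with a median of -0.56 and summed signals of 16073 and 12361. Chad, chondroadherin, had a log2 ratio of -0.85 and Mia -0.81, while Sox9 had 0.27 and Hapln1, link protein, 0.20. Mia (1034 and 591) counted as measured only through the wild-type array. Matn1, matrilin of mature cartilage, was not measured (485 and 415). The chondrocyte markers and the type IX chains thus had medians on the same side, with Col2a1 and Sox9 on the other. The part of cartilage content in the cartilage collagen ratios was not tested.

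Basement membrane chains differed little between the arrays. Of 9 chains 6 were measured, all within 2-fold, with a median log2 ratio of -0.04 (0.28 when scaled to the median signal of reference genes). Col4a1, of the widespread type IV network, had 21882 and 23584, a log2 ratio of 0.11, with -0.23 in its second probe set. Col4a2, its obligate partner, had 6197 and 5910, a log2 ratio of -0.07. Col4a5, a chain of specialised basement membranes encoded on the X chromosome, had 2958 and 2836, a log2 ratio of -0.06, but -0.93 in its second probe set. These leading probe sets all lay close to 0, and each of the 3 changed sign with at least 1 other scaling. The X-linked Xist, expressed from the inactive X, had 33813 and 16947, and Eif2s3y on the Y had 10.8 and 2794. The samples thus differed in sex-linked transcripts. Both leading probe sets were above the measured level of 658 on the array labelled double null, and what this mix comes from was not tested. Sex and genotype cannot be told apart in any ratio given here, and the part of sex in the Col4a5 values was not tested. Col4a3 (205 and 286), Col4a4 (151 and 405) and Col4a6 (13.6 and 302) were not measured.

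Col15a1 and Col18a1 link basement membranes to the matrix below, and the C-terminal part of Col18a1 is endostatin. Col15a1 had 1982 and 2100, a log2 ratio of 0.08. Col18a1 had 4363 and 4325, a log2 ratio of -0.01, with -0.39 in the second probe set. Col7a1, the anchoring fibril of stratified epithelium, had 2967 and 2131, a log2 ratio of -0.48, the lowest of this group. Of 7 measured basal epithelium markers 6 were below 0, with a median of -0.59 and summed signals of 88721 and 62198. Among these Lamb3 was 2.06-fold lower and Krt15 had -0.96. Of 7 endothelium markers 5 were below 0, with a median of -0.37 and summed signals of 12854 and 10934. The lowest were Tie1 (1054 and 315, 3.35-fold lower) and Pecam1 (762 and 109, at least 2.66-fold lower). Both counted as measured only through the wild-type array. Emcn and Tek were above 0, at 0.51 and 0.22. Emcn (631 and 896) counted as measured only through the array labelled double null. Pericyte markers had a median of -0.03 (0.29 when scaled to the median signal of reference genes) with 3 of 5 below 0 and summed signals of 29657 and 30655, and Kcnj8 had -0.50 and Rgs5 0.24. The part of these cells in the basement membrane values was not tested.

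Network chains had a median log2 ratio of 0.06 over 5 measured of 7 chains with a probe set, and the sign of that median turned in 6 of 14 alternatives. Type VI collagen forms beaded microfibrils around muscle fibres and in connective tissue. Col6a1 had 19909 and 18088, a log2 ratio of -0.14. Col6a2 had 27884 and 29057, a log2 ratio of 0.06, with -0.56 in the second probe set. Col6a3 had 36552 and 39494, a log2 ratio of 0.11. The leading probe sets of the type VI chains thus stayed within 0.25 of each other on the log2 scale, while skeletal muscle markers had summed signals of 182443 and 95345. Their signs depended on the scaling: Col6a1 was above 0 with scaling on the median signal of reference genes, and Col6a2 and Col6a3 were below 0 with quantile normalization, with scaling on the median ratio of reference genes and with that on their median signal without Eef2, Col6a2 also with the deposited scaling. Col6a4 (403 and 160) and Col6a5 (177 and 66.7) were not measured.

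Type VIII chains form hexagonal nets in vessel walls and in the membrane behind the cornea. Col8a1 had 16372 and 30180, a log2 ratio of 0.88. Among leading probe sets this was the highest of the chains with the reported scaling, while with quantile normalization Col12a1 (0.78) stood above Col8a1 (0.73), and with the mean over probe sets Col1a1 (0.97) was the highest. Its second measured probe set gave 1455 and 897, a log2 ratio of -0.70. The probe sets of Col8a1 were therefore opposite in sign and, with the reported scaling, each beyond the SD, and their mean was 0.09. Col8a2 had 2743 and 2449, a log2 ratio of -0.16.

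Fibril-associated chains lay on both sides of 0. The 4 measured chains had a median of -0.11 (0.20 for the same 4 when scaled to the median signal of reference genes), and their median absolute log2 ratio was 0.66, or 0.33 with the mean over probe sets. Col12a1, of tendon, periosteum and other dense tissue, had 3939 and 7086, a log2 ratio of 0.85, but 1510 and 1161 in its second measured probe set, a log2 ratio of -0.38, with a mean of 0.23. Col14a1, a fibril surface chain of skin and tendon, had 9231 and 11298, a log2 ratio of 0.29, with -0.10 in its second measured probe set. Col16a1, found at fibril surfaces and near basement membranes, had 12467 and 7109, a log2 ratio of -0.81. For Col12a1 and Col14a1 the probe sets thus disagreed in sign, and Col16a1 had no other probe set.

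Col22a1, the collagen of the myotendinous junction, had signals of 8171 and 5711, a log2 ratio of -0.52. Its other probe sets went from 1745 to 1584 and from 1302 to 835, log2 ratios of -0.14 and -0.64. It was lower in all 3 probe sets and remained well above the measured level. Its leading ratio was a smaller decrease than the skeletal muscle marker median of -1.07, whose members ranged from -1.69 to -0.55. Col19a1, known from muscle and neurons, was not measured (616 and 639), nor was Col20a1 (527 and 331).

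Of the transmembrane and other chains 5 were measured, with a median of -0.23 (0.09 when scaled to the median signal of reference genes). Col13a1, a transmembrane collagen that stabilises the neuromuscular junction, had 4013 and 2342, a log2 ratio of -0.78 from its 1 probe set. Col25a1, made by muscle cells and needed for motor axons to enter muscle, had 1979 and 2444, a log2 ratio of 0.30. With the reported scaling the chains known from muscle thus lay on both sides of 0, Col22a1 and Col13a1 below and Col25a1 above. Col25a1 lay within the SD and was at -0.17 when scaled to reference genes without Eef2. Col22a1 and Col13a1 stayed below 0 in all 13 alternatives run for them. Col17a1, of the hemidesmosome of basal keratinocytes, had 2474 and 2111, a log2 ratio of -0.23. Col23a1, a transmembrane chain, had 967 and 1068, a log2 ratio of 0.14, with -0.41 in its second measured probe set. Col26a1 had 3058 and 2475, a log2 ratio of -0.31. Col17a1 lay on the same side of 0 as Col7a1 and as 6 of 7 basal epithelium markers, except with scaling on the median signal of reference genes, where it was at 0.09. Neuron and Schwann cell markers had summed signals of 35351 and 91568 and of 13167 and 24125, and their part in Col25a1 was not tested. In the neuron list Elavl4 was 3.36-fold, Snap25 2.94-fold, Nefl 2.85-fold, Rbfox3 2.61-fold and Stmn2 2.28-fold higher. Of the 3 measured Schwann cell markers Dhh was 2.24-fold and Fabp7 2.03-fold higher. The third, Sox10, went the other way, with 2158 and 1562, a log2 ratio of -0.47, and -0.50 in its other probe set.

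Chains of the same collagen type were then compared with each other, since such a difference of log2 ratios does not depend on a factor applied to a whole array. The SD of 0.51 is that of a single ratio, and that of a difference between 2 of them is 0.73. Among 13 pairs of measured chains that share a type number, 10 differed by up to 0.73 and 3 by more, or 23.1%, where 32.2% of all pairs of measured genes differed by more. With the mean over probe sets 3 pairs again lay past it (30.3% of all gene pairs), the type I pair taking the place of the type VIII pair. Neither count is a result about the family.

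Type XI was the widest pair, with Col11a1 above Col11a2 by 1.57 on the log2 scale and by 1.25 to 1.57 over 13 alternatives. Type VIII followed, with Col8a1 above Col8a2 by 1.05, a value that fell to 0.26 with the mean over probe sets. Col5a1 and Col5a2 stood 0.67 and 0.79 above Col5a3, and 0.38 and 0.91 above it with the mean over probe sets. The values of Col11a2 and Col5a3 each rest on 1 measured probe set.

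Type I chains assemble as a trimer that normally holds more Col1a1 than Col1a2. The log2 ratio of Col1a1 stood 0.48 above that of Col1a2, within the SD of a difference, and 0.78 above it with the mean over probe sets. Such a difference compares the arrays and is no measure of the amounts of the chains. Col9a1 and Col9a3 differed by 0.02, or 0.09 with that mean. Col4a2 and Col4a5 differed by 0.01 in their leading probe sets but by 0.43 with the mean, and Col6a2 and Col6a3 by 0.05 and 0.36.

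**Figure D3:**
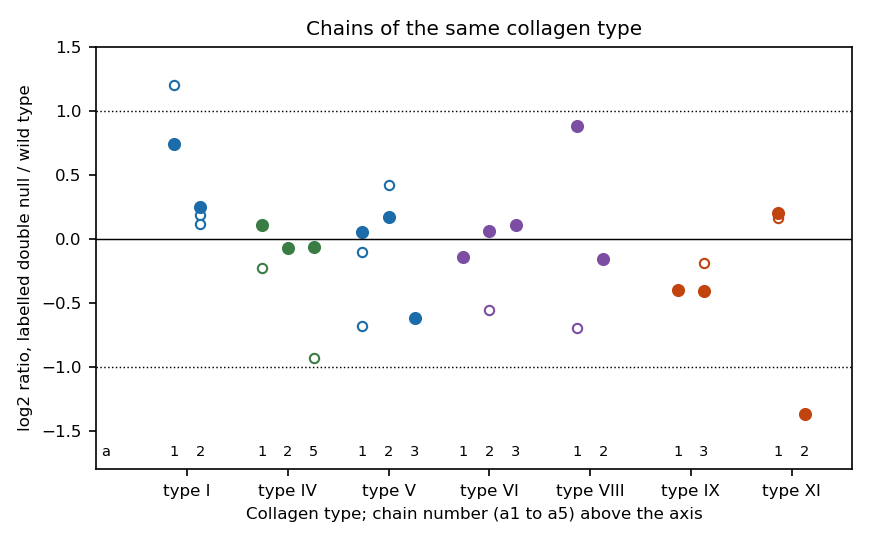
Log2 ratios (labelled double null over wild type) of measured probe sets for chains that share a collagen type; filled circles are the brightest probe set of a chain, open circles the others, dotted lines mark 2-fold. Chains of types IV, VI and IX have filled circles close together, while Col11a1 and Col11a2 stand 1.57 apart and Col8a1 and Col8a2 1.05 apart.

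Several of these chains are neighbours in the genome. In the RefSeq table of GRCm38.p6, Col4a1 and Col4a2 were adjacent protein-coding genes whose promoter windows of 300 bases overlapped by 78 bases on opposite strands, the only overlap among collagen windows, and their log2 ratios were 0.11 and -0.07. Col3a1 and Col5a2, also adjacent, had 0.13 and 0.17, and Col6a1 and Col6a2 had -0.14 and 0.06. The measured neighbours thus lay close together, as did most chains. Of the 42 chains 33 had a promoter window in the RefSeq table used, in 38 collagen windows in all.

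Upstream sequences are shown for the type VIII pair, whose leading probe sets differed by 1.05, for Col11a1, the type XI chain near 0, and for Col1a2, whose 3 probe sets lay within the SD. They are the 250 bases (189 for Col11a1) before the first transcribed base of the RefSeq gene record (build GRCm38.p6), printed from 5′ to 3′ on the strand of the gene, and the window of Col11a2 is not printed because most of it lies inside its gene record. Capitals mark every match on either strand to the motifs searched. These were the GC box, spelled GGGCGG, the CCAAT box and the TATA box, the latter searched as TATAAA. The E-box forms searched were CAGCTG, which myogenic factors are known to bind, and also the related form spelled CACCTG.
Col8a1, chr16:57754738-57754987, minus strand: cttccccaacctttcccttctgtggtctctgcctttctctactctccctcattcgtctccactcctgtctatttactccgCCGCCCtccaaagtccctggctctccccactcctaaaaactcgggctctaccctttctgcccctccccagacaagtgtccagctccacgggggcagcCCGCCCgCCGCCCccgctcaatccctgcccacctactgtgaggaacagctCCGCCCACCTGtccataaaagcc
Col8a2, chr4:126286544-126286793, plus strand: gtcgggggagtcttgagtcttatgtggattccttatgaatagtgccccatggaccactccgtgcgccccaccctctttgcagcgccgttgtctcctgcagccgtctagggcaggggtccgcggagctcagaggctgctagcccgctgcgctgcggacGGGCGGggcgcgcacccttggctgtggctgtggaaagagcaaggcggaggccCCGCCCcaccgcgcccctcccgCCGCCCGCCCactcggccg
Col11a1, chr3:114030290-114030478, plus strand: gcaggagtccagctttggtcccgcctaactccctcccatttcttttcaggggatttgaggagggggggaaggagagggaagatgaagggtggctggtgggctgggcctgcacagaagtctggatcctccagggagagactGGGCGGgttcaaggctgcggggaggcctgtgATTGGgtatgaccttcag
Col1a2, chr6:4505368-4505617, plus strand: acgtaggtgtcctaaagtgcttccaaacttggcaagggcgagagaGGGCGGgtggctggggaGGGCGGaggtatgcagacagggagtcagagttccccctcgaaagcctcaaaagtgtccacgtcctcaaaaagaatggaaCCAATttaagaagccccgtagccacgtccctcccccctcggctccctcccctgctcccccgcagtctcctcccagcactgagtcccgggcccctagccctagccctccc

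The Col8a1 stretch held 4 GC boxes and a CACCTG that shares its first base with the last of them. The Col8a2 stretch held 4 GC boxes, of which the last pair share bases, and neither CAGCTG nor CACCTG. Those of Col11a1 and Col1a2 held GC boxes and a CCAAT box, and again no E-box of either form. Over the 250 bases before the start, CAGCTG was found in 6 of 38 collagen windows (15.8%), against 13.0% of 32851 windows of all genes, and CACCTG in 4 (10.5%) against 17.2%. GC boxes were found in 22 collagen windows (57.9%) against 32.7%, CCAAT in 13 (34.2%) against 33.8%, and TATAAA in 5 (13.2%) against 12.4%. The median GC content over all windows was 52.4%, and the printed stretches had from 60.3% (Col11a1) to 70.0% (Col8a2). The part of base composition in the GC box share was not tested. A match is a description of letters and not a site of binding.

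Genes that modify, fold and export collagen were mostly below 0. Of 24 genes 20 were measured, 16 of them below 0 (80%, against 43.7% of all measured genes) and 4 above, with a median log2 ratio of -0.37, which was -0.05 when scaled to the median signal of reference genes. Past 2-fold were 2, both lower, or 10% beside the 7.72% of all measured genes. Tmem38b, an endoplasmic reticulum channel needed for collagen modification in bone, went from 4129 to 1607 (2.57-fold lower), but its other probe sets had a median of 0.63. Creb3l1, a transcription factor that drives type I collagen secretion in osteoblasts, went from 6388 to 3027 (2.11-fold lower). In the same list the prolyl 3-hydroxylase family members P3h4 and P3h3 had -0.78 and -0.75, and the prolyl 4-hydroxylase subunit P4ha2 -0.62. The dedicated collagen chaperone Serpinh1 had 42185 and 40167, a log2 ratio of -0.07, with -1.47 in its other measured probe set. P4hb (64438 and 64097) and Sparc (66575 and 76443) were near 0 in their leading probe sets, with a median of -0.51 in the other probe sets of Sparc. With scaling on the median signal of reference genes 1 gene was past 2-fold, and with Eef2 left out of that scaling 7 were.

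Genes that trim procollagen and cross-link fibrils had a median of -0.04, which was 0.27 when scaled to the median signal of reference genes. Of 8 measured 4 were below 0, and 2 were past 2-fold, 1 each way (25%, beside 7.72% of all measured genes). Tll1, a procollagen C-proteinase, was at least 3.68-fold higher (264 and 1056). Its wild-type signal lay under the floor of 287, and it counted as measured only through the array labelled double null. Bmp1, the main procollagen C-proteinase, went from 2438 to 1217 and was just past 2-fold lower. Lox, the lysyl oxidase that starts cross-links, had 16743 and 17320. Collagen receptors had a median of 0.18 (-0.29 when scaled to reference genes without Eef2), with 7 of 9 measured above 0 (77.8%, against 56.3% of all measured genes) and 1 past 2-fold (11.1%, beside 7.72%). Among those above 0 was Ddr1 at 0.40, whose 6 other probe sets had a median of -0.84. Mrc2, an uptake receptor for collagen, went from 4733 to 2364, just past 2-fold lower, and Itgb1, the shared integrin beta chain, from 5116 to 8102, a log2 ratio of 0.66. Among regulators of collagen genes 5 were measured, with a median of -0.46 and none past 2-fold. For the same 5 that median was -0.14 when scaled to the median signal of reference genes. Sox5, Sp7 and Mkx had -0.50, -0.46 and -0.46. Sox5 (659 and 466) counted as measured only through the wild-type array.

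**Figure D4:**
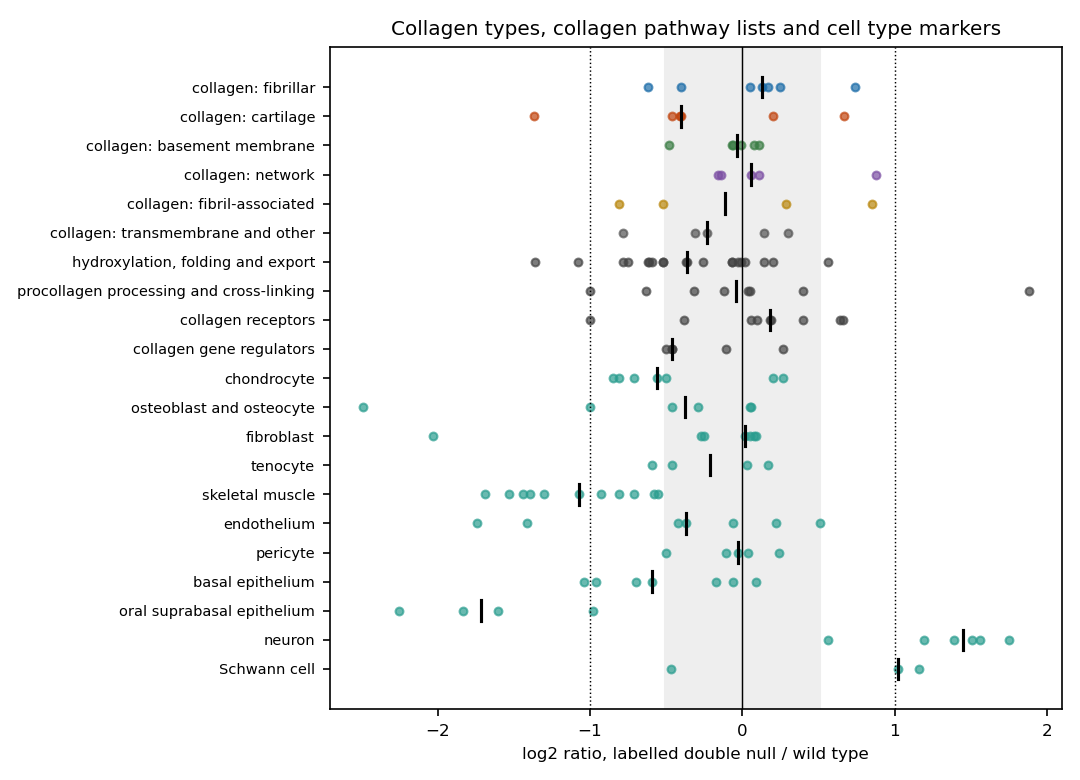
Log2 ratios (labelled double null over wild type) of measured genes in the collagen types, the collagen pathway lists and the marker lists; points are genes, black bars list medians, the grey band the SD of 0.51 between probe sets, and dotted lines 2-fold. Collagen types have medians from -0.41 to 0.13, while skeletal muscle lies at -1.07, oral suprabasal epithelium at -1.72 and neurons at 1.45.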

How the data were processed

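Values were the authors' deposited linear signal intensities, 1 per probe set and array, made with MAS5 from biotinylated cRNA of 6 µg total RNA, per the submitters' processing notes and the labels' protocols; its version was not stated there. Of 45101 probe sets 64 controls were left out. The platform annotation gave 34945 probe sets 1 gene, 932 several and 9160 none. Identifiers of 34741 matched the RefSeq table of GRCm38.p6, and no symbol changed.

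Arrays were scaled to a common median of the probe sets that reached the 50th percentile on each (factors 0.974 and 1.03), floored at the 40th percentile (287) and taken to log2. A fold with an array under the floor is a lower bound. Each gene was represented by its brightest probe set (mean log2), measured where the brighter array reached the 60th percentile (658). Every collagen chain was named, and of other lists the members past 2-fold and the 2 with the largest ratios; names beyond these were chosen after their values were seen. Members and lists were chosen with earlier results of these data known. The number of arrays limits the precision. The steps were tested on simulated data with planted ratios larger than that of any chain and noise below the SD between probe sets. That test does not bear on ratios of the size found for the chains. Python 3.11.15, numpy 2.4.6, pandas 2.3.3 and matplotlib 3.10.9 were used. Alternatives covered scaling, floor, filter, probe set choice, fold rule and grouping.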

Additional observations from a re-analysis of the deposited data

How the results depend on the processing

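No paired analysis was possible because each genotype had 1 array. Over 16 alternatives 166 of 186 recomputed counts and medians stayed within 1.5 times the count or within the SD of 0.51 between probe sets. The 20 that moved were all counts. A scaling factor shifted log2 ratios by at most 0.47 in size, less than that SD, so for medians this rule could hardly register a change of scaling. The share is therefore no measure of how stable the medians or their signs were. Col11a2 was at least 2-fold lower in each alternative with the 2-fold rule, with log2 ratios from -1.84 to -1.06. With the 1.5-fold rule 4 chains were lower and 4 higher, and with the 3-fold rule 0 were lower. Among the 12 measured reference genes the median was 0.13, and Eef2 (-1.52) and Ywhaz (0.57) lay farthest from 0. Scaling on their median signal moved the median of all genes from 0.07 to 0.40 and that of the chains to 0.33, with 3 chains at least 2-fold higher (Col1a1, Col8a1 and Col12a1), where 10.2% of all genes were higher and 2.05% lower. That shift rests on Eef2: the median signals of the 12 genes were 28980 and 23283, but 18322 and 25405 for the 11 others. With Eef2 left out, an alternative chosen after seeing the data, the median of all genes was -0.42 and that of the chains -0.45, with 4 chains at least 2-fold lower (Col5a3, Col11a2, Col13a1 and Col16a1), where 13.9% of all genes were. Relative to all genes the chain median lay between -0.21 and 0.00 in all settings. Of 33 chains 14 kept their sign in every alternative run for them and 19 did not, none of these having a reported log2 ratio above 0.31 in size. The mean over probe sets moved Col8a1 to 0.09 and Col12a1 to 0.23. The cartilage median stayed below 0 (-0.88 to -0.09), and the fibrillar median ranged from -0.34 to 0.44.

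Modification, folding and export genes past 2-fold numbered 1 with scaling on the median signal of reference genes and with the mean over probe sets, 7 with the 1.5-fold rule and with Eef2 left out, and 0 with the 3-fold rule, against 2. Processing and cross-linking genes past 2-fold numbered 1, against 2, with scaling on the median signal of reference genes and with the floor at the 60th percentile. They numbered 1 also with the offset, the filter at the 75th percentile and the 3-fold rule. Receptors past 2-fold numbered 0 with scaling on the median signal of reference genes, the offset and the 3-fold rule, against 1. They numbered 2 with probe sets without suffix classes and 3 with the 1.5-fold rule. Beyond the choice of rule itself, the cause was not tested.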

Other observations

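Probe sets of the same chain disagreed about as often as probe sets of other genes. Of 17 chains with another measured probe set, 10 had a median of the others on the same side of 0 as the leading probe set (58.8%) and 7 on the opposite side, beside 61.0% on the same side over 4030 genes. The chains with opposite signs included Col8a1, Col12a1 and Col14a1. Those with the same sign in every measured probe set included Col1a1, Col1a2, Col3a1, Col22a1 and Col27a1.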
